A study of Neurospora crassa with 12 samples.

Results

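The genes described here are 8 genes of the filamentous fungus Neurospora crassa, chosen by identifier as a list for sulfur and phosphate acquisition. They were taken from the 9729 annotated (NCU) genes of the count table. The 5 sulfur genes were cys-3 (NCU03536), scon-2 (NCU08563), cys-14 (NCU04433), NCU02632 and ars-1 (NCU06041). The 3 phosphate genes were nuc-1 (NCU09315), pho-4 (NCU09564) and pho-5 (NCU08325). The reference annotation gives a symbol for 7 of the 8 and none for NCU02632, which is therefore called by its identifier and given no function. NCU02632 is counted with the sulfur genes only because the chosen list placed it there. Wild-type mycelium of strain FGSC2489 was exposed to 40 μM HSAF, the heat-stable antifungal factor made by Lysobacter bacteria, and RNA was sequenced from 3 libraries for each time point. HSAF-0 (libraries A, B and C) was untreated, HSAF-5 (D, E and F) was treated for 5 min, HSAF-30 (G, H and I) for 30 min and HSAF-60 (J, K and L) for 60 min. By the labels the mycelium was 48 h old and grown at 28 °C, whereas the methods of the study give 24 h and 25 °C. No vehicle-treated libraries were analysed here, so the effects of HSAF, of its solvent and of the time after addition cannot be told apart.

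Fungi sense sulfur and phosphate shortage through separate circuits, and each ends in a transcription factor that switches on uptake and scavenging genes. In N. crassa CYS-3, a bZIP activator, turns on sulfur genes such as the sulfate permease gene cys-14 and the arylsulfatase gene ars-1, and it is opposed by SCON-2, an F-box protein that marks proteins for degradation. NUC-1, a helix-loop-helix activator, turns on phosphate genes such as the permease genes pho-4 and pho-5, and it is held in check by the cyclin-like protein PREG, which NUC-2 counteracts when phosphate is short.

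Over the 12 libraries the total counts ranged from 11517462 to 15698448, but NCU genes held 790513 counts in the shallowest library (I) and 11265740 in the deepest (J). The rest lay on features without an NCU identifier, and 2 of these alone took 25.2% (L) to 93.7% (I) of a library. The untreated libraries had a share of those 2 features of 34.9% to 80.4%, with 39.8% to 77.8% for HSAF-5, 34.3% to 93.7% for HSAF-30 and 25.2% to 66.1% for HSAF-60; its part in the results was not tested, and the calls are also given without library I. Levels are CPM values, the counts relative to the library total of the NCU genes that passed the filter on low counts, after TMM scaling. Differences are log2 fold changes with their standard error (SE) from the quasi-likelihood test of edgeR, and p was adjusted over 7582 tested genes by the Benjamini-Hochberg method. A gene was called changed at an adjusted p under 0.01 and a change of at least 2-fold. Of the 8 genes, 7 passed the filter on low counts; ars-1 did not. The conidiation markers con-6, con-10 and con-13 had group means of at most 3.07 CPM, while con-8 (5.06 to 39.4 CPM) and eas (10.3 to 41.8 CPM) were detected in every group of the mycelium. Of these markers con-6 and con-13 were not tested. In edgeR con-10 was called higher at 30 min (log2 fold change 3.86 against HSAF-0, adjusted p = 0.008915), at group means of 0.186 and 2.79 CPM. However, con-10 passed the filter on low counts only by way of HSAF-30 and HSAF-60, where it was highest. Its HSAF-30 libraries ranged from 0 CPM upward and overlapped HSAF-0. The con-8 gene was at 39.4 CPM at 5 min and 5.06 CPM at 30 min (-2.71, adjusted p = 0.01449 in edgeR, not called). Of 2 housekeeping genes, the actin gene act was called higher at 30 min as well (1.01, adjusted p = 0.00974 in edgeR). The other, tef-1, went the other way, with log2 fold changes against HSAF-0 of -0.33, -0.65 and -1.08 at 5, 30 and 60 min. None of these tef-1 values was called (adjusted p = 0.4701, 0.09693 and 0.02028 in edgeR). The part of the marker and housekeeping changes in the 30 min results was not tested. Whether a difference reflects fewer cells of a type or less RNA per cell cannot be told apart in such bulk samples.

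Per length, the order of the 8 genes was led by cys-3. In the deposited FPKM values cys-3 was first of the 8 in 12 of 12 libraries, with a median of 9.89 FPKM over the libraries, a level above that of 82.1% of the NCU genes. Next in median FPKM came cys-14 at 5.39, NCU02632 at 3.39, scon-2 at 0.782, pho-4 at 0.464, nuc-1 at 0.312, pho-5 at 0.194 and ars-1 at 0.0627. The ranks of neighbours below cys-3 crossed: cys-14 ranked from 2 to 3, NCU02632 from 2 to 5, scon-2 from 3 to 6, pho-4 and pho-5 each from 3 to 8, nuc-1 from 2 to 8 and ars-1 from 7 to 8 over the libraries. These FPKM values count the features without an NCU identifier in the library total, so the ranks are taken within a library, and the medians pool libraries whose totals differ and are a description only.

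After 30 min of HSAF the activator gene cys-3 fell and the phosphate permease gene pho-4 rose. In edgeR no other of the 7 tested genes was called against HSAF-0 at that time. DESeq2 called 5 of the 7 there, 1 higher and 4 lower, beside 3051 of all 7582 tested genes, and the calls below are those of edgeR. At 60 min cys-3 and pho-4 were no longer called against HSAF-0, and NCU02632 was the single gene called, lower. At 5 min none was called. Between 30 and 60 min pho-4 fell. The second phosphate permease gene, pho-5, was also called, higher, over that interval, but it passed the filter on low counts only by way of HSAF-60, where it was highest.

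The activator gene cys-3 was measured at 206, 222 and 312 CPM in HSAF-0, at 150, 123 and 181 CPM in HSAF-5, at 43.1, 75.7 and 39.3 CPM in HSAF-30, and at 184, 107 and 84.7 CPM in HSAF-60. Every treated library lay below every untreated one, and the 3 HSAF-30 libraries lay below all others. The log2 fold change against HSAF-0 was -2.21 (SE 0.37, n = 3 per group, adjusted p = 0.0001374 in edgeR) at 30 min, a level 4.64-fold lower. It was -0.70 (SE 0.35, adjusted p = 0.165 in edgeR) at 5 min and -0.98 (SE 0.35, adjusted p = 0.054) at 60 min, neither of which was called. The 30 min call was made with any of the 12 libraries left out, with log2 fold changes from -2.58 to -2.01, and under the 9 other settings tried. Against HSAF-5 the HSAF-30 value was -1.51 (SE 0.36, adjusted p = 0.00536 in edgeR), a call that was lost without B, D, F, G or I, the value without I being -1.35 (adjusted p = 0.01919), and also with library size alone or only the 2 groups compared. From 30 to 60 min the log2 fold change was 1.24 (SE 0.36, adjusted p = 0.01145 in edgeR), just outside the threshold.

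The gene of the opposing F-box protein, scon-2, stood at 16.7, 14.3 and 13.5 CPM in HSAF-0, at 7.62, 6.86 and 6.37 CPM in HSAF-5, at 7.24, 6.22 and 13.4 CPM in HSAF-30, and at 9.84, 15.3 and 6.62 CPM in HSAF-60. All HSAF-5 and HSAF-30 libraries lay below the untreated ones, library I by the smallest margin, and HSAF-60 overlapped them. None of the differences was called. The log2 fold changes against HSAF-0 were -1.10 (SE 0.40, adjusted p = 0.05819 in edgeR) at 5 min, -0.83 (SE 0.40, adjusted p = 0.09509) at 30 min and -0.50 (SE 0.38, adjusted p = 0.3684) at 60 min.

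The sulfate permease gene cys-14 had 71.7, 59.8 and 55.6 CPM in HSAF-0, 78.7, 70.5 and 60.4 CPM in HSAF-5, 19.5, 51.6 and 15.3 CPM in HSAF-30, and 70.0, 82.4 and 59.9 CPM in HSAF-60. HSAF-5 and HSAF-60 overlapped the untreated libraries, while the HSAF-30 libraries lay below them, H only just so. At 30 min the log2 fold change against HSAF-0 was -1.07 (SE 0.38, adjusted p = 0.02795 in edgeR), which was not called, and at 5 and 60 min it was 0.16 (SE 0.37) and 0.18 (SE 0.37). Without H the 30 min value was -1.81 (adjusted p = 0.0002727), past the threshold. The 30 min value was past it in 1 of the 12 fits that left out a library and under 4 of the 9 other settings. Against HSAF-5 the HSAF-30 value was -1.23 (adjusted p = 0.02212 in edgeR) and from 30 to 60 min it was 1.25 (adjusted p = 0.01421), neither called.

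NCU02632 had 61.7, 47.4 and 69.3 CPM in HSAF-0, 74.9, 83.4 and 84.3 CPM in HSAF-5, 11.5, 39.0 and 12.5 CPM in HSAF-30, and 22.1, 9.40 and 6.33 CPM in HSAF-60. The HSAF-5 libraries were the highest, and HSAF-30 and HSAF-60 lay below all of the others. At 60 min it fell by 2.22 on the log2 scale against HSAF-0 (SE 0.48, adjusted p = 0.003304 in edgeR), a level 4.65-fold lower. That call was lost without A, C, K or L, with an adjusted p of up to 0.022, and without J the log2 fold change was -2.93. At 5 min the log2 fold change was 0.44 (SE 0.46, adjusted p = 0.5164 in edgeR) and at 30 min -1.45 (SE 0.48, adjusted p = 0.01935), neither called, although without H the 30 min value was -2.33 (adjusted p = 0.0007922). The 30 min value was past the threshold in 2 of the 12 fits that left out a library and under 4 of the 9 other settings. Against HSAF-5 the HSAF-30 value was -1.90 (SE 0.48, adjusted p = 0.007592 in edgeR), called, but without any of A to G or without I it was not, and without I it was -1.68 (adjusted p = 0.03134). Library size alone and only the 2 groups compared also ended that call (adjusted p = 0.01716 and 0.01275 in edgeR).

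The arylsulfatase gene ars-1 was close to the limit of detection, with 47 counts in the 12 libraries together. It had 4, 0 and 5 counts in HSAF-0, 0, 3 and 0 in HSAF-5, 2 in each HSAF-30 library, and 16, 0 and 13 in HSAF-60. Summed over libraries, the 29 counts of HSAF-60 against the 9 of HSAF-0 gave a ratio of 2.08 with a 95% interval of 0.960 to 5.00 that covers counting error only, so no difference was detectable at this depth.

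**Figure D1:**
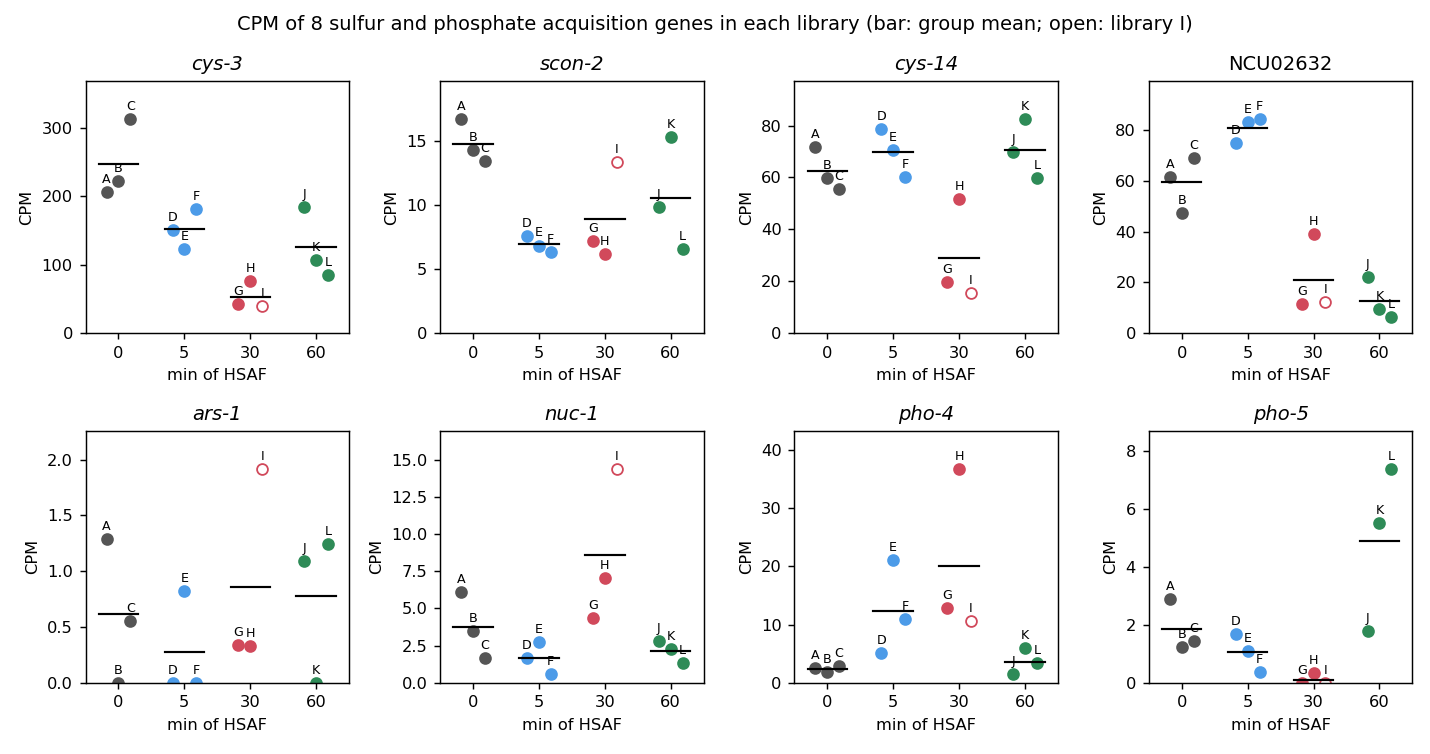
CPM (linear axis from 0) of each of the 8 genes in each library, by minutes of HSAF, with the group mean as a bar and library I as an open point. The 3 HSAF-30 libraries of cys-3 sit between 39.3 and 75.7 CPM, below every other library, and those of pho-4 sit between 10.5 and 36.7 CPM, above every untreated library.

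Among the phosphate genes, the activator gene nuc-1 was low and scattered, at 6.11, 3.48 and 1.65 CPM in HSAF-0, 1.69, 2.74 and 0.579 CPM in HSAF-5, 4.38, 7.04 and 14.4 CPM in HSAF-30, and 2.80, 2.25 and 1.34 CPM in HSAF-60. The 3 HSAF-30 libraries were higher than those of HSAF-5 and HSAF-60 and overlapped HSAF-0. No difference was called: the log2 fold change against HSAF-0 was -1.14 (SE 0.71, adjusted p = 0.2615 in edgeR) at 5 min, 1.14 (SE 0.64, adjusted p = 0.1488) at 30 min and -0.74 (SE 0.63, adjusted p = 0.4314) at 60 min. The highest value came from library I, the shallowest, and without it the HSAF-30 log2 fold change was 0.68 (adjusted p = 0.4084).

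The phosphate-repressible permease gene pho-4 was at 2.57, 1.81 and 2.87 CPM in HSAF-0, at 5.08, 21.1 and 10.99 CPM in HSAF-5, at 12.8, 36.7 and 10.5 CPM in HSAF-30, and at 1.44, 5.93 and 3.45 CPM in HSAF-60. All HSAF-5 and HSAF-30 libraries were above all untreated ones, with library H the highest, and HSAF-60 overlapped the untreated group. At 30 min the gene rose by a log2 fold change of 3.09 against HSAF-0 (SE 0.63, adjusted p = 0.0007698 in edgeR), a level 8.54-fold higher. The call was made with each of the 12 libraries left out and under the 9 other settings, and the value without H was 2.29. At 5 min the log2 fold change was 2.37 (SE 0.63, adjusted p = 0.01196 in edgeR), just outside the threshold. It was past the threshold in 3 of the 12 fits that left out a library and under 4 of the 9 other settings. From 30 to 60 min pho-4 fell by 2.59 on the log2 scale (SE 0.60, adjusted p = 0.00273 in edgeR), a call that was lost without H (-1.78, adjusted p = 0.02626), without J (-2.17, adjusted p = 0.01375) and without L (-2.59, adjusted p = 0.01122), and with only the 2 groups compared (-2.54, adjusted p = 0.01062).

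The high-affinity phosphate permease gene pho-5 was sparse, with 9, 9 and 13 counts in HSAF-0, 4, 4 and 2 counts in HSAF-5, 0, 2 and 0 counts in HSAF-30, and 26, 27 and 77 counts in HSAF-60. In CPM the levels were 2.89, 1.25 and 1.43 in HSAF-0, 1.69, 1.10 and 0.386 at 5 min, 0, 0.328 and 0 at 30 min, and 1.78, 5.52 and 7.38 at 60 min. The HSAF-30 libraries were the lowest, and HSAF-60 overlapped HSAF-0 through library J. The gene passed the filter only by way of HSAF-60, the group where it was highest. Above the cutoff were 3 libraries of HSAF-60, 2 of HSAF-0 and 0 of HSAF-5 and HSAF-30. Its call between 30 and 60 min was therefore not independent of the filter. From 30 to 60 min the summed counts rose from 2 to 130, a ratio after scaling of 28.4 with a counting interval of 7.71 to 237. The fitted log2 fold change was 4.84 (SE 1.03, adjusted p = 0.001494 in edgeR), called; it was not called without G (4.08, adjusted p = 0.01184), and without H, when HSAF-30 had 0 counts, it was 7.90. Against HSAF-0 the HSAF-30 counts were 2 against 31, a level 10.5-fold lower with a counting interval of 2.67 to 90.4, and the fitted difference was not called (adjusted p = 0.0174 in edgeR). At 60 min against HSAF-0 the log2 fold change was 1.45 (SE 0.71, adjusted p = 0.1488 in edgeR).

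**Figure D2:**
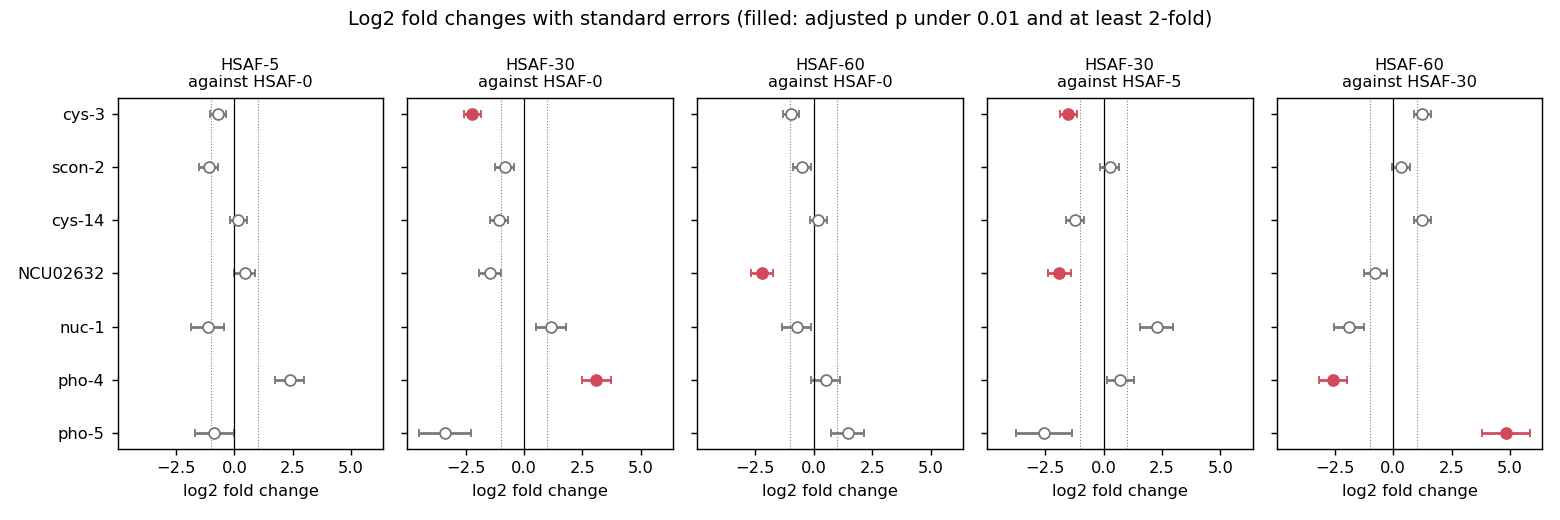
Log2 fold change (x axis, with 1 SE as the bar) of the 7 tested genes in 5 comparisons, filled where the adjusted p was under 0.01 and the change at least 2-fold. In the panel of HSAF-30 against HSAF-0 the filled points are cys-3 at -2.21 and pho-4 at 3.09.

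The calls among the 7 tested genes were counted beside the share of all tested genes called in the same direction. In HSAF-5 against HSAF-0 edgeR called 0 of 7 higher, where 9.72% of all tested genes were called, and 0 lower, where 2.27% were. An unadjusted p under 0.05 in edgeR was found for 2 of the 7, beside 2681 of all 7582 tested genes. DESeq2 called 1 (pho-4), beside 1332 of all 7582, and limma-voom called 0, beside 898. In HSAF-30 against HSAF-0, 1 was called higher, where 19.1% of all tested genes were, and 1 lower, where 15.2% were. In HSAF-60 against HSAF-0, 0 were called higher, where 9.38% of all were, and 1 lower, where 3.53% were. In HSAF-30 against HSAF-5, 0 were called higher (9.02% of all) and 2 lower (7.81% of all). In HSAF-60 against HSAF-30, 1 was called higher (13.4% of all), which was pho-5, and 1 lower (13.8% of all). In this fit of 12 libraries pho-5 passed the filter on low counts only by way of HSAF-60, so its call cannot be weighed against that share. Without library I, 0 were called in HSAF-5 against HSAF-0 (10.5% of all tested genes higher, 3.26% lower), 1 higher and 1 lower in HSAF-30 against HSAF-0 (19.6% and 12.8% of all), and 1 lower in HSAF-60 against HSAF-0 (10.3% higher and 5.17% lower of all). In HSAF-30 against HSAF-5 neither call was kept without I (8.59% higher and 5.29% lower of all), and in HSAF-60 against HSAF-30 there were 1 higher, again pho-5, and 1 lower (11.8% and 15.5% of all). Comparisons that share HSAF-0 or HSAF-30 libraries are not independent of each other.

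The median log2 fold change of the 7 tested genes was -0.70 in HSAF-5 against HSAF-0, beside -0.11 over all tested genes. It was -1.07 beside -0.17 at 30 min and -0.50 beside 0.0020 at 60 min. In HSAF-30 against HSAF-5 it was -1.23 beside -0.11, and in HSAF-60 against HSAF-30 it was 0.34 beside 0.10 over all tested genes. These medians, and the replicate counts below, include pho-5, which passed the filter on low counts only by way of HSAF-60. At 30 min the 4 tested sulfur genes had log2 fold changes against HSAF-0 from -2.21 to -0.83. The 3 phosphate genes were at 1.14 (nuc-1, not called), 3.09 (pho-4) and -3.39 (pho-5, not called). The sulfur range thus lay within the phosphate range only through pho-5, which had 2 counts in HSAF-30. Replicates that did not overlap between groups were seen at 30 min against HSAF-0 for 5 lower genes, where 31.6% of all tested genes had such lower replicates, and for 1 higher gene, where 25.9% had such higher replicates. At 5 min 2 genes had higher (23.4% of all) and 2 lower (24.9% of all) replicates of this kind, and at 60 min 0 had higher (26.5%) and 2 lower ones (25.2%). In HSAF-30 against HSAF-5 there were 1 higher (18.4%) and 4 lower (21.3%), and in HSAF-60 against HSAF-30 there were 3 higher (27.7%) and 2 lower (20.7%).

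Ratios of 2 genes within a library do not depend on how the libraries are scaled. With 3 libraries against 3, the exact permutation test cannot give a p below 0.1, so none of the 15 tests could pass. The ratio of cys-14 to NCU02632 counts was 1.16, 1.26 and 0.803 in HSAF-0 and 3.16, 8.68 and 9.41 in HSAF-60. In HSAF-60 the cys-14 levels overlapped their untreated values and those of NCU02632 lay below them, and the 3 HSAF-60 ratios were above all 9 others. The difference in the mean log2 ratio was 2.59 (2.67 ± 0.88 against 0.078 ± 0.35, SD, n = 3; two-sided exact permutation p = 0.1, adjusted p = 0.3).

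The ratio of pho-5 to pho-4 counts, a pair of phosphate permease genes, was 1.12, 0.704 and 0.509 in HSAF-0, and all the HSAF-5 (0.0435 to 0.360) and HSAF-30 (0.00654 to 0.0435) libraries were below it. By 60 min it was 1.23, 0.932 and 2.12, overlapping the untreated libraries. The mean log2 ratio differed from HSAF-0 by -2.93 at 5 min and by -5.65 at 30 min (exact two-sided permutation p = 0.1 for each, adjusted p = 0.3), and by 0.87 at 60 min (exact p = 0.2, adjusted p = 0.3333). The HSAF-30 ratios rest on 2 pho-5 counts in all, and with a pseudocount of 1 instead of 0.5 the 30 min difference was -4.93. The ratio of scon-2 to cys-3 was higher in every HSAF-30 library than in any untreated one, with a mean log2 difference of 1.48 (exact permutation p = 0.1, adjusted p = 0.3). The margin was small, with 0.0832 in H and 0.0818 in A. With a library left out the difference ranged from 0.96 to 1.99. The ratio of pho-4 to nuc-1 was higher in every HSAF-5 library than in any untreated one, with a difference of 3.25 (exact permutation p = 0.1, adjusted p = 0.3). Its HSAF-5 values rest on 4, 10 and 3 nuc-1 counts.

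**Figure D3:**
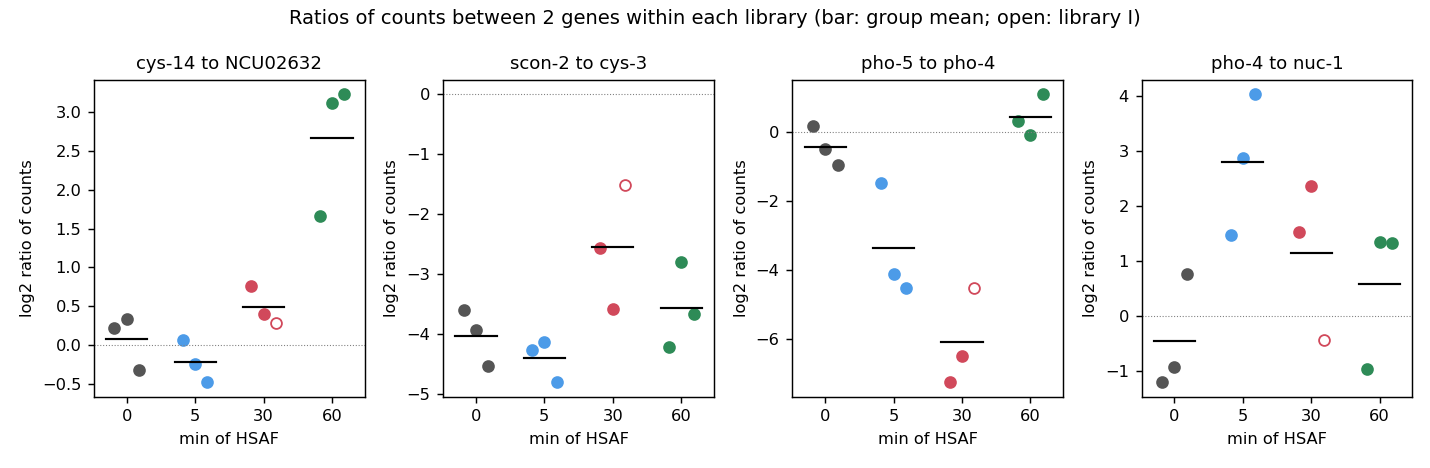
Log2 ratio of counts between 2 genes in each library (a pseudocount of 0.5 was added), by minutes of HSAF, with the group mean as a bar and library I as an open point. In the panel of cys-14 to NCU02632 the 3 HSAF-60 libraries lie above the rest, and in that of pho-5 to pho-4 the HSAF-5 and HSAF-30 libraries lie below the others.

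Further genes of the 2 pathways were taken by symbol from the reference annotation, 14 for sulfur (cys, met, scon) and 4 for phosphate, and all 18 were tested. Against HSAF-0, edgeR called 0 of the 14 sulfur genes higher (9.72% of all tested genes) and 1 lower (2.27% of all) at 5 min. At 30 min it called 3 higher (19.1% of all) and 4 lower (15.2% of all), and at 60 min 0 higher (9.38% of all) and 4 lower (3.53% of all). Of the 4 phosphate genes none was called at 5 min, 2 were called lower at 30 min and 1 higher at 60 min, beside the same shares of all genes. The median log2 fold change of the sulfur genes was -0.46, -0.62 and -0.64 at 5, 30 and 60 min and that of the phosphate genes -0.71, -1.97 and -0.50, beside -0.11, -0.17 and 0.0020 over all tested genes.

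Of the regulators, scon-3, which encodes the Skp1-like partner of SCON-2, rose at 30 min from 937 ± 172 to 3717 ± 1630 CPM (SD, n = 3), a log2 fold change of 1.99 (SE 0.37, adjusted p = 0.0003818 in edgeR). The phosphate regulator gene nuc-2 fell at 30 min from 14.6 ± 2.999 to 2.43 ± 2.38 CPM, a log2 fold change of -2.25 (SE 0.58, adjusted p = 0.004337 in edgeR), a call lost without A, B or G, and -2.92 without H. The gene of the cyclin-like inhibitor, preg, had 18.3, 9.22, 12.2 and 16.3 CPM in the groups from 0 to 60 min and was called in none of the comparisons.

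Against HSAF-0 both scavenging phosphatase genes were called, 1 higher at 60 min and the other lower at 30 min. Both were lower than HSAF-0 at 30 min and rose from 30 to 60 min, though not every such difference was called. The gene of the repressible alkaline phosphatase, pho-2, had 5.14 ± 1.24 CPM in HSAF-0 and 25.4 ± 19.4 CPM in HSAF-60, rising by 2.33 on the log2 scale (SE 0.57, adjusted p = 0.006982 in edgeR), a call lost without A, B, C, K or L, with upper quartile factors and with limma-voom. Without L the pho-2 value was 1.51 (adjusted p = 0.09107). At 30 min pho-2 was lower than in HSAF-0, with a log2 fold change of -1.69 (SE 0.68, adjusted p = 0.05013 in edgeR), which was not called. From 30 min, when it had 1.62 ± 1.17 CPM, it rose by a log2 fold change of 4.03 (SE 0.68, adjusted p = 0.0002393 in edgeR), which was 3.38 without G, 5.28 without H and 3.20 without L, each called. The gene of the repressible acid phosphatase, pho-3, fell at 30 min from 17.8 ± 7.74 to 2.91 ± 0.86 CPM, a log2 fold change of -2.47 (SE 0.42, adjusted p = 0.0001766 in edgeR), and it had 36.8 ± 5.78 CPM at 5 min. In HSAF-30 against HSAF-5 its log2 fold change was -3.54 (SE 0.43, adjusted p = 3.893e-05 in edgeR), called. From 30 to 60 min pho-3 rose by 1.13 (SE 0.42, adjusted p = 0.04014 in edgeR), not called. At 60 min it was still lower than HSAF-0, by -1.34 (adjusted p = 0.01536 in edgeR), also not called.

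Among the sulfur metabolism genes, cys-9 (thioredoxin reductase) rose at 30 min from 87.9 ± 16.5 to 587 ± 264 CPM and was at 56.9 ± 9.58 CPM at 60 min; the log2 fold changes were 2.74 against HSAF-0 (SE 0.38, adjusted p = 2.222e-05 in edgeR) and -3.37 from 30 to 60 min (SE 0.39, adjusted p = 1.353e-05). Of the methionine synthesis genes, met-8 (methionine synthase) fell from 1240 ± 253 CPM in HSAF-0 to 181 ± 95.5 CPM in HSAF-60, a log2 fold change of -2.78 (SE 0.45, adjusted p = 0.0003492 in edgeR), and met-7 (cystathionine gamma-synthase) fell by 1.79 on the log2 scale at 30 min (SE 0.30, adjusted p = 0.0001299). The 30 min call of met-8 (-1.70, adjusted p = 0.003991 in edgeR) was lost without A, C, G or I, and the 60 min call of met-7 (-1.31, adjusted p = 0.003737) without A, B, C, K or L. The remaining calls against HSAF-0 were cys-17 lower at 5 min (-1.61), cys-16 higher at 30 min (1.74), cys-18 lower at 30 and 60 min (-2.51 and -1.88), met-10 lower at 30 min (-1.34) and cys-4 lower at 60 min (-1.73), with edgeR adjusted p from 0.0003033 to 0.005961. Of these, the call of cys-17 was lost without A, B, D or F, that of cys-16 without A, B, C or H (0.92 without H) and with upper quartile factors or library size alone, that of cys-18 at 60 min (the 30 min value was -3.20 without H) without A, B, C, K or L, and that of met-10 without B and with only the 2 groups compared. With library size alone met-7 was not called at 60 min. Without library I cys-17 was also called lower at 30 min.

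**Figure D4:**
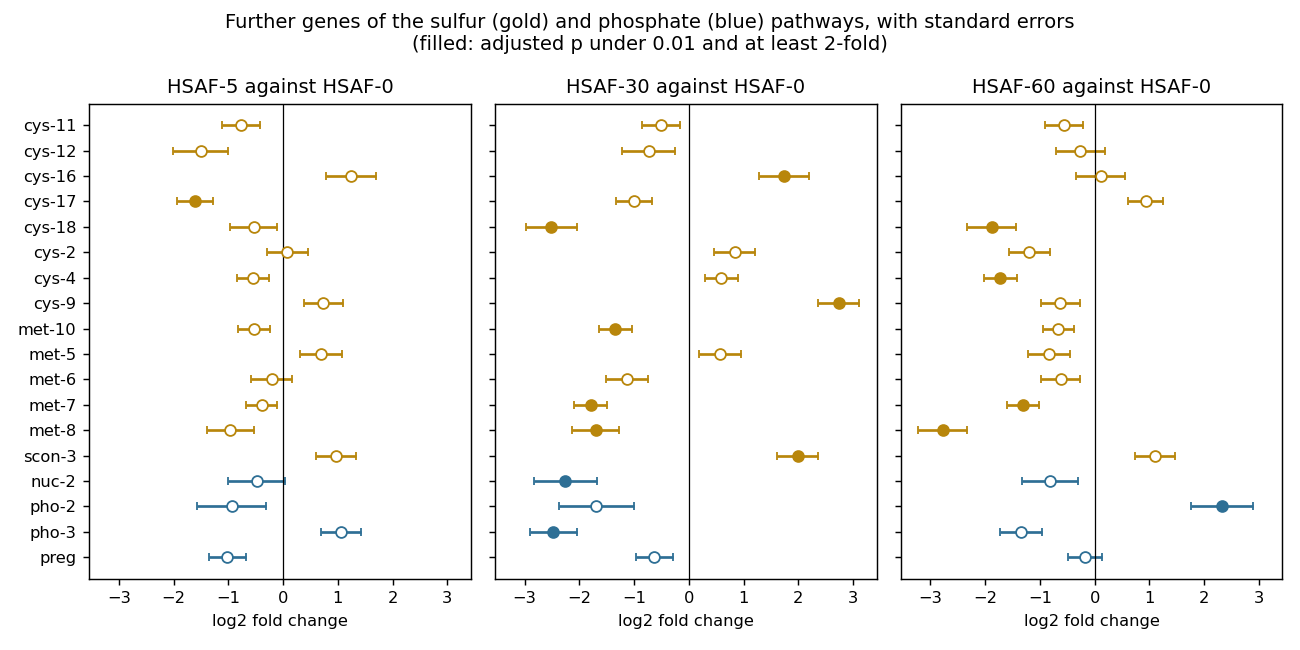
Log2 fold change (x axis, with 1 SE as the bar) of the 14 further sulfur genes (gold) and 4 further phosphate genes (blue) against HSAF-0, filled where the adjusted p was under 0.01 and the change at least 2-fold. The filled points at 30 min include cys-9 at 2.74 and pho-3 at -2.47.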

How the data were processed

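RNA of wild-type mycelium (12 libraries, 3 per time point) was sequenced after NEBNext Ultra library preparation. The authors trimmed the reads with Trimmomatic and deposited raw counts per feature and FPKM values per feature; aligner, counting program, genome build and strand setting: not given in the sources used here. Both tables hold 11409 features, of which 9729 NCU genes were matched by locus tag to the RefSeq annotation for their symbols and 1680 features without an NCU identifier were left out of library sizes and tests. Counts on NCU genes (790513 to 11265740 per library) were filtered with filterByExpr (minimum count 10), which left 7582 genes. Library sizes were then reset to the counts on these genes and scaled by TMM. The counts were fitted in R 4.3.3 with edgeR 4.0.16 (quasi-likelihood test, 1 term per time point, 12 libraries), and p was adjusted by the Benjamini-Hochberg method. Calls needed an adjusted p under 0.01 and 2-fold. The FPKM values gave the rank of the 8 genes within each library and their medians over libraries, with no test. Ratios of counts used a pseudocount of 0.5 and exact permutation tests in scipy 1.17.1; intervals of summed counts are 95% and cover counting error only. Alternatives were other scalings, no filter, DESeq2 1.42.0, limma-voom (limma 3.58.1), the 2 groups alone, a looser call at an adjusted p of 0.05 with no minimum fold, and each library left out. The main script was tested on simulated counts with 1 common dispersion for all genes. Against HSAF-0 it called 26.2% to 28.1% of the genes given a log2 change of 1.5 in either direction. Of those given a log2 change of 3 it called 90.4% to 96.1%. The study calls the replicates biological, but neither it nor the labels say that they were separate cultures, so p-values measure the spread between these libraries, which may be technical. The 8 genes and the other lists were chosen with earlier results of these data known. The genes described are the 8, every further pathway gene called against HSAF-0, scon-3, nuc-2 and preg, and the 2 genes whose pattern was most like each of the 7 that were tested.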

Additional observations from a re-analysis of the deposited data

How the results depend on the processing

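Of the 35 log2 fold changes of the 7 tested genes under 21 alternatives, 656 values kept their direction and side of the threshold, 43 passed it, 26 no longer did and 7 changed direction, none of them a called value. The number of the genes called in HSAF-5 against HSAF-0 (0) was 1 without the filter, with DESeq2, with only the 2 groups compared and at an adjusted p under 0.05. It was 0 to 1 with a library left out. Of all tested genes the main fit called 909 of 7582 here. These settings called 947 of 9047, 1332 of 7582, 1389 of 6783 and 1654 of 7582 in that order, and fits with a library left out 568 to 1092. In HSAF-30 against HSAF-0 (2) it was 5 with upper quartile factors, 4 with library size alone, 5 with DESeq2 and 5 at an adjusted p under 0.05, and 2 to 4 with a library left out. In HSAF-60 against HSAF-0 the number of the genes called (1) was 0 to 1 with a library left out. Of all tested genes the main fit called 979 of 7582 there, and fits with a library left out 508 to 1287. In HSAF-30 against HSAF-5 the number of the genes called (2) was 0 with library size alone and with only the 2 groups compared. It was 4 with DESeq2 and at an adjusted p under 0.05, and 0 to 3 with a library left out. Of all tested genes the main fit called 1276 of 7582 there. These settings called 1347 of 7582, 725 of 6562, 1838 of 7582 and 2301 of 7582 in that order, and fits with a library left out 706 to 1707. Between HSAF-30 and HSAF-60 (2) there were 4 with DESeq2 and with its size factors in edgeR, and 4 with library size alone or upper quartile factors. There was 1 with only the 2 groups compared, 5 at an adjusted p under 0.05, and 1 to 3 with a library left out. Of all 7582 tested genes the main fit called 2059 there. The first 4 settings called 2552, 2157, 2256 and 2173 in that order. The 2 groups alone called 1246 of 7238, the looser threshold 3212 of 7582, and fits with a library left out 1521 to 2130. The values that changed direction were cys-14 in HSAF-5 against HSAF-0 (-0.086 with upper quartile factors, -0.33 with library size alone), NCU02632 in the same comparison (-0.053 with library size alone), NCU02632 in HSAF-60 against HSAF-30 (0.12 without H; -1.48 to 0.12 over the libraries left out), scon-2 in HSAF-30 against HSAF-5 (-0.032 without I; -0.032 to 0.46), scon-2 in HSAF-60 against HSAF-30 (-0.0078 without K; -0.0078 to 0.63), pho-4 in HSAF-30 against HSAF-5 (-0.085 without H; -0.085 to 1.38), and the difference in log2 ratio of ars-1 to cys-3 at 5 min (-1.04 without B, -0.91 without E; -1.04 to 1.21); the cause was not tested.

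Scaling moved all genes together. The median log2 fold change of all genes in HSAF-5, HSAF-30 and HSAF-60 against HSAF-0 was -0.11, -0.17 and 0.0020 with TMM, -0.36, -0.47 and -0.14 with upper quartile factors, and -0.61, -0.44 and 0.15 with library size alone. The share of higher genes among those called was 81.1%, 55.7% and 72.6% with TMM, 62.8%, 42.9% and 58.0% with upper quartile factors, and 46.3%, 45.0% and 78.8% with library size alone; in HSAF-30 against HSAF-5 and HSAF-60 against HSAF-30 it was 53.6% and 49.2% with TMM and 66.5% and 68.2% with library size alone. The alternatives of the ratios and of the further pathway genes were chosen after seeing the data. Fits that left out a library tested 8 of the genes, since the filter then needs fewer libraries. No paired analysis was possible because the labels give each library its own letter and no number shared between time points.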

Other observations

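The genes whose levels were most like those of each of the 7 tested genes were ranked by Pearson's r of log2 CPM over the 12 libraries, which share 4 time points and differ in depth, among 5115 or 5116 tested genes of an average log2 CPM of at least 3. For cys-3 they were NCU02328 (r = 0.978) and NCU07567 (r = 0.975), and for cys-14 NCU17154 (r = 0.960) and gh35-1 (r = 0.958). For NCU02632 they were NCU02475 (r = 0.983) and pdx-1 (r = 0.970), the latter a gene of vitamin B6 synthesis. The likeness was lower for scon-2, with xdh-1 (r = 0.862) and NCU09866 (r = 0.837). For nuc-1 they were NCU04838 (r = 0.937) and NCU06929 (r = 0.932), for pho-4 NCU06266 (r = 0.943) and NCU04022 (r = 0.942), and for pho-5 NCU01399 (r = 0.928) and NCU01278 (r = 0.927). Without library I the values lay between 0.837 and 0.982. Between the genes themselves, the highest r over the 12 libraries was 0.77 for cys-14 and pho-5 (0.70 without I). Next came cys-3 with cys-14 at 0.75 (0.61) and with NCU02632 at 0.66 (0.62). The lowest were cys-3 and pho-4 at -0.60 (-0.61), cys-14 and nuc-1 at -0.59 (-0.26), scon-2 and pho-4 at -0.58 (-0.66), and pho-4 and pho-5 at -0.57 (-0.56). The pho-5 values include 0, 2 and 0 counts in HSAF-30. That gene passed the filter on low counts only by way of HSAF-60, where it was highest, so its r values are not independent of the filter.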
